A study of Homo sapiens with 6 samples.

Results

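Semaphorins are guidance cues that act through plexins, and many of the secreted ones also need a neuropilin as co-receptor. All 31 human semaphorin, plexin and neuropilin genes of the deposited count files were taken, by a match of the gene symbol to SEMA classes 3 to 7, PLXNA to PLXND, and NRP1 or NRP2, out of 60609 genes in all. The set holds 7 secreted class 3 semaphorins, 13 membrane-bound semaphorins, 9 plexins and 2 neuropilins. Poly(A) RNA was measured by strand-specific RNA-seq in 6 libraries of K562, an established human leukaemia line with erythroid features. In both groups a dTAG degron was fused to endogenous EP400, the large ATPase of the TIP60 complex, and a second EP400 was expressed from the AAVS1 locus. The WT group (3 libraries) carried exogenous WT EP400, and the Delta-TRRAP group (3 libraries) carried exogenous Delta-TRRAP EP400, which lacks the SANT and HD segments that hold the TRRAP module. All cells were given dTAGV-1, the degrader of the tagged protein, at 500 nM for 24 h. Each complemented line was grown from 1 clone, so clone and genotype cannot be told apart, and the replicates give no measure of the variation between clones. Every difference below is Delta-TRRAP over WT, and a positive log2 fold change means a higher level in Delta-TRRAP.

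Semaphorins share an extracellular sema domain, as do the plexins that bind them. Bound plexins act inside the cell as GTPase-activating proteins for small R-Ras and Rap GTPases, which changes adhesion and the cytoskeleton. Beyond axon guidance the family is known for vascular patterning and for contacts between immune cells, and SEMA7A carries the John Milton Hagen blood group on red cells.

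Among the 26 members with enough counts to test, 8 rose and 2 fell in Delta-TRRAP. The secreted SEMA3F and the membrane-bound SEMA7A and SEMA4D rose from measurable WT levels, and SEMA3C, SEMA6A, PLXNA4, PLXNC1 and NRP2 rose from low ones. SEMA3D and the receptor PLXND1 fell. A call needed an adjusted p of 0.01 or less in edgeR (quasi-likelihood F test, Benjamini-Hochberg correction over 19114 genes) and a fold change of at least 2. Called members were 38.5% of the 26, beside 22.6% of all tested genes. Rises made up 16.5% and falls 6.08% of all tested genes. A gene was tested when its mean normalized count, the count scaled to a common library size, was at least 5. SEMA3C, SEMA6A and NRP2 reached 5 only in Delta-TRRAP and SEMA3D only in WT, so these 4 entered the test through the group in which they were high.

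The share called depended on expression level across the genome. Of the 13 members with mean normalized counts between 5 and 100, 6 rose and 1 fell, beside 30.8% and 6.27% of all genes at that level. Of the 8 members between 100 and 1000, 1 rose and 1 fell, beside 13.8% and 8.89%. Of the 5 members at 1000 or more, 1 was called, and it was higher, beside 2.41% called higher and 3.89% lower. The other 4 were not called in the edgeR quasi-likelihood test. On the adjusted p alone SEMA4C, PLXNA1 and PLXNB2 were lower and PLXNA3 was higher. The 26 members had a median log2 fold change of 0.32 beside 0.03 over all tested genes, with 17 positive and 9 negative values. The 3 libraries of each group did not overlap for 22 of the 26 members, beside 71.1% of all tested genes.

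**Figure D1:**
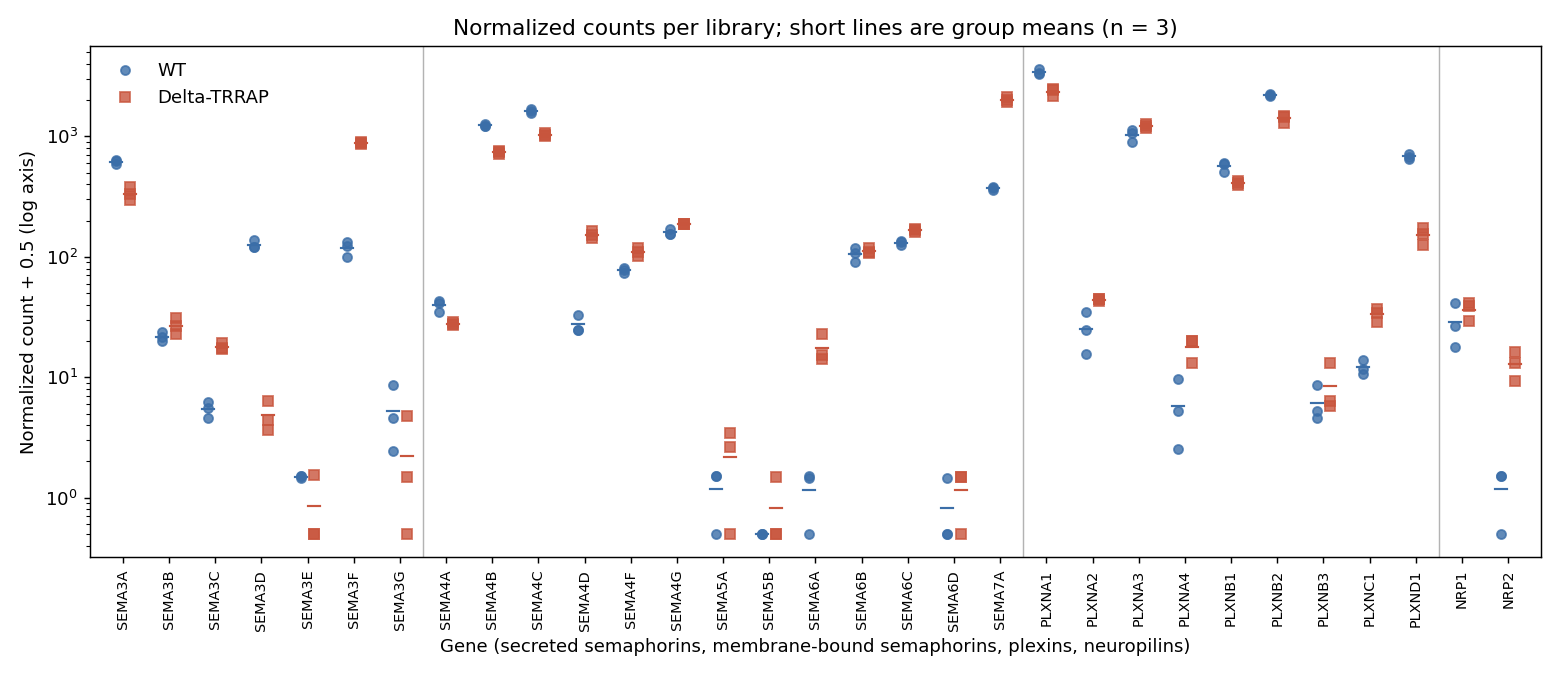
Normalized counts plus 0.5 (log axis) of the 31 members in each of the 6 libraries, grouped as secreted semaphorins, membrane-bound semaphorins, plexins and neuropilins. Points are libraries and short lines are group means (n = 3). SEMA3F, SEMA7A and SEMA4D stand higher in Delta-TRRAP, SEMA3D and PLXND1 stand lower, and SEMA3E, SEMA5A, SEMA5B and SEMA6D stay near 0 in both groups.

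The 250 bases upstream of the annotated start are shown for the 5 called members whose mean normalized count exceeded 100 in a group, of which 3 rose and 2 fell, since their fold changes rest on the most reads. They are RefSeq promoter entries on GRCh38.p14, read 5′ to 3′ on the strand of the gene: SEMA7A at chr15:74433959-74434208 (minus strand), SEMA3F at chr3:50154808-50155057 (plus), SEMA4D at chr9:89495657-89495906 (minus, within the gene as GENCODE draws it, at no exon), SEMA3D at chr7:85187057-85187306 (minus) and PLXND1 at chr3:129606677-129606926 (minus). Where a gene had several entries the first was taken. Capitals mark exact matches, on either strand and counted with overlaps, to the GC box GGGCGG or the E-box CACGTG.

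SEMA7A: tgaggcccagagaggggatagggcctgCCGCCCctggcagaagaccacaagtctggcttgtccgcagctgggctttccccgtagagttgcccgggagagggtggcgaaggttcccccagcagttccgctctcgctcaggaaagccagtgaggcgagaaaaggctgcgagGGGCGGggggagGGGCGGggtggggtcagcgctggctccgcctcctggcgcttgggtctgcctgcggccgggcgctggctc
SEMA3F: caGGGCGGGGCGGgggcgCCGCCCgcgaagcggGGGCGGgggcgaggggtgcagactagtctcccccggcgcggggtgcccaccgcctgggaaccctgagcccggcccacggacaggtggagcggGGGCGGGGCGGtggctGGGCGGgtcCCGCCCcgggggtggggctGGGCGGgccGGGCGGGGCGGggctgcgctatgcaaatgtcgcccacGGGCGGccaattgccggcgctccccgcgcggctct
SEMA4D: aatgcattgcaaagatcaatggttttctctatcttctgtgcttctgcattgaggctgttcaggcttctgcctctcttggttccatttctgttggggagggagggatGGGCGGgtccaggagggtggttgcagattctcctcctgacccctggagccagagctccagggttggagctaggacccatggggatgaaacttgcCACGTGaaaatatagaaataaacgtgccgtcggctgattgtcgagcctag
SEMA3D: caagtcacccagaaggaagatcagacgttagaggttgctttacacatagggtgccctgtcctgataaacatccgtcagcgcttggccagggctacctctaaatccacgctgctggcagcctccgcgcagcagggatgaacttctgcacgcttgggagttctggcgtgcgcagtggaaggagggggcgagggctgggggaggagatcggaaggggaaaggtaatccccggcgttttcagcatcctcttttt
PLXND1: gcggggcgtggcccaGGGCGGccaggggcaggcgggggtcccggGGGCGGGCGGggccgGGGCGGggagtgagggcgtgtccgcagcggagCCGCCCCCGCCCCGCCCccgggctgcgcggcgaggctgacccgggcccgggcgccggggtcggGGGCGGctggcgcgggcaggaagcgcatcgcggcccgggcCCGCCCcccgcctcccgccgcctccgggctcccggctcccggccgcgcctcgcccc

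The SEMA3F promoter held 12 GC box matches and that of PLXND1 held 9, SEMA7A held 3, SEMA4D held 1 and SEMA3D held none. A GC box was thus present in promoters of genes that moved in opposite directions. Of the 27 members with an entry, the first promoter held a GC box in 5 of 7 that rose and 1 of 2 that fell. The same held for 10 of 13 that were tested and not called. Among all 35116 promoter entries, where a gene can have several, 42.6% held a GC box. These counts depend on the entry taken. SEMA3C and PLXNB1 held none in the first entry and 3 and 5 in the second, and SEMA4G held 2 in the first and none in the second. An E-box was found in SEMA4D alone among the called members, beside 6.34% of all promoters. Searches for the E2F motif TTTCCCGC, the ETS motif CCGGAAGT, the CRE motif TGACGTCA and the GATA factor motif AGATAA found no match in the first promoters of the 9 called members with an entry, beside 1.39%, 3.42%, 1.65% and 9.17% of all promoters. These matches describe letters in a window and no binding was measured here. SEMA3A, SEMA6A, SEMA6B and NRP1 are the members without an entry.

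Class 3 semaphorins, the secreted ligands that mostly signal through a neuropilin with a class A plexin, moved in both directions. SEMA3F, a ligand of NRP2 known as a repellent of axons and of endothelial cells (ENSG00000001617.12, chr3:50155045-50189075, plus strand on GRCh38), had normalized counts of 123, 98.8 and 133 in WT replicates 1 to 3 and 863, 879 and 896 in Delta-TRRAP replicates 1 to 3. All 3 Delta-TRRAP libraries lay far above all WT libraries. The mean went from 118 ± 17.7 to 879 ± 16.5 (SD, n = 3), a fitted rise of 7.45-fold with a log2 fold change of 2.90 ± 0.09 (SE) and an adjusted p of 5.737e-13 in the edgeR quasi-likelihood test. SEMA3B, its close neighbour on chromosome 3 and likewise a secreted ligand, had counts of 23.3, 21.1 and 19.3 in WT replicates 1 to 3 and 30.4, 26.3 and 22.2 in Delta-TRRAP replicates 1 to 3. Those groups overlapped, and its log2 fold change of 0.31 ± 0.24 did not pass (adjusted p = 0.2578, same edgeR test). The start sites of both genes lie 113 kb apart on the same strand.

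SEMA3C, SEMA3E, SEMA3A and SEMA3D lie in that order in one 4.44 Mb stretch of chromosome 7, all on the minus strand. SEMA3D, a guidance cue with a known part in vein patterning (ENSG00000153993.13, chr7:84995553-85187056, minus strand), had normalized counts of 121, 119.9 and 137 in WT replicates 1 to 3 and 3.92, 5.85 and 3.17 in Delta-TRRAP replicates 1 to 3. WT libraries were all above 100 and Delta-TRRAP libraries all under 10. The mean fell from 126 ± 9.89 to 4.31 ± 1.38 (SD, n = 3), a fitted difference of 28.2-fold lower, with a log2 fold change of -4.82 ± 0.24 and an adjusted p of 1.076e-10 (edgeR quasi-likelihood test). It was the largest fall of the set. SEMA3A, the classical growth cone repellent and a ligand of NRP1 (ENSG00000075213.11), starts 694 kb away. It had 588, 635 and 622 in WT replicates 1 to 3 and 293, 379 and 332 in Delta-TRRAP replicates 1 to 3. The groups were apart, and the log2 fold change of -0.88 ± 0.09 passed the p threshold (2.705e-07, edgeR) but not the fold threshold.

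SEMA3C, a ligand of both neuropilins known from cardiac outflow development (ENSG00000075223.14), rose at the other end of that stretch. Its normalized counts were 5.07, 5.76 and 4.07 in WT replicates 1 to 3 and 18.6, 16.6 and 16.9 in Delta-TRRAP replicates 1 to 3. Every Delta-TRRAP library was above every WT library, all at low counts. This gave a log2 fold change of 1.78 ± 0.35 (adjusted p = 0.0003184, edgeR quasi-likelihood test). SEMA3E, the ligand of PLXND1 that needs no neuropilin, was below the filter with 3 reads summed over WT and 1 over Delta-TRRAP. SEMA3G, an endothelial ligand of NRP2, was also below it, with 14 and 5 reads, and the 95% counting interval of its Delta-TRRAP to WT ratio ran from 0.101 to 1.06.

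SEMA7A is a membrane-bound semaphorin. It is anchored by a lipid (GPI), binds the plexin PLXNC1 and the integrin beta 1 chain, and lies on chromosome 15 (ENSG00000138623.10, chr15:74409289-74433958, minus strand). Its normalized counts were 359.7, 382 and 371 in WT replicates 1 to 3 and 1989, 2130.1 and 1941 in Delta-TRRAP replicates 1 to 3. All Delta-TRRAP libraries exceeded all WT libraries by over 5 times. The mean rose from 371 ± 11.0 to 2019.9 ± 98.3 (SD, n = 3), a fitted rise of 5.44-fold, with a log2 fold change of 2.44 ± 0.06 and the smallest adjusted p of the set (5.355e-14, edgeR quasi-likelihood test).

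SEMA4D, also called CD100, binds plexin B1 and, on lymphocytes, CD72 (ENSG00000187764.11, chr9:89360787-89498130, minus strand). Its normalized counts were 24.3, 32.6 and 24.4 in WT replicates 1 to 3 and 142, 164 and 150.2 in Delta-TRRAP replicates 1 to 3. The groups were far apart, with a mean going from 27.1 ± 4.76 to 152 ± 10.9 (SD, n = 3) and a log2 fold change of 2.48 ± 0.16 (adjusted p = 2.134e-09, edgeR). SEMA6A, a ligand of plexins A2 and A4 (ENSG00000092421.16), was close to the floor in WT. Its raw counts were 0, 1 and 1 in WT replicates 1 to 3 and 15, 14 and 21 in Delta-TRRAP replicates 1 to 3. WT libraries held at most 1 read and Delta-TRRAP libraries at least 14. After scaling for library size the ratio was 25.2, with a 95% exact counting interval from 6.62 to 214 that leaves out variation between cultures, and the adjusted p was 9.973e-06 (edgeR quasi-likelihood test).

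The semaphorins with the most reads in WT were lower in Delta-TRRAP by less than the fold threshold. SEMA4C, a ligand of plexin B2 (ENSG00000168758.11), had normalized counts of 1673, 1575 and 1623 in WT replicates 1 to 3 and 1076, 1027 and 1002 in Delta-TRRAP replicates 1 to 3. SEMA4B (ENSG00000185033.14), of the same class, had 1257, 1225 and 1222 in WT replicates 1 to 3 and 763, 747 and 715 in Delta-TRRAP replicates 1 to 3. In both genes each Delta-TRRAP library was below each WT library. Their log2 fold changes were -0.65 ± 0.05 and -0.74 ± 0.06, with adjusted p of 4.176e-08 and 1.304e-08 in the edgeR test.

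The remaining tested membrane-bound members were not called. SEMA4G had normalized counts of 154, 169.8 and 156 in WT replicates 1 to 3 and 187, 188 and 188 in Delta-TRRAP replicates 1 to 3. It did not overlap between groups and missed the p threshold (log2 fold change 0.23 ± 0.10, adjusted p = 0.04497, edgeR). SEMA6C, a transmembrane semaphorin of class 6, had 132, 124 and 134 in WT replicates 1 to 3 and 161, 167 and 171 in Delta-TRRAP replicates 1 to 3, again without overlap (log2 fold change 0.36 ± 0.10, adjusted p = 0.006529, edgeR). SEMA6B, a ligand of plexin A4, had 107, 90.2 and 118 in WT replicates 1 to 3 and 107, 117 and 109 in Delta-TRRAP replicates 1 to 3, and its groups overlapped. SEMA4F averaged 77.0 in WT and 109 in Delta-TRRAP (log2 fold change 0.50 ± 0.13), and SEMA4A, a costimulator of T cells, averaged 39.3 and 27.4 (log2 fold change -0.51 ± 0.20, adjusted p = 0.03252, edgeR). SEMA5A, SEMA5B and SEMA6D were not tested, with summed reads of 2, 0 and 1 in WT and 5, 1 and 2 in Delta-TRRAP.

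PLXND1, the receptor through which SEMA3E acts on blood vessels (ENSG00000004399.12, chr3:129555214-129606676, minus strand), was the plexin that fell. Its normalized counts were 655, 674 and 714 in WT replicates 1 to 3 and 174, 154 and 125 in Delta-TRRAP replicates 1 to 3. Every Delta-TRRAP library lay far below every WT library. The mean dropped from 681 ± 30.4 to 151 ± 24.5 (SD, n = 3), a fitted difference of 4.50-fold lower, with a log2 fold change of -2.17 ± 0.10 and an adjusted p of 3.474e-11 (edgeR quasi-likelihood test).

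PLXNC1, the receptor of SEMA7A (ENSG00000136040.9, chr12:94148577-94307675, plus strand), also rose, at a far lower level than its ligand. Its normalized counts were 11.1, 13.4 and 10.2 in WT replicates 1 to 3 and 28.4, 36.1 and 33.8 in Delta-TRRAP replicates 1 to 3. The groups did not overlap, and the log2 fold change was 1.49 ± 0.26 (adjusted p = 0.0001035, edgeR). PLXNA4, a receptor of class 6 semaphorins (ENSG00000221866.9), had 2.03, 4.80 and 9.16 in WT replicates 1 to 3 and 19.6, 19.5 and 12.7 in Delta-TRRAP replicates 1 to 3. Its WT libraries spread over more than 4 times, and the highest of them was near the lowest Delta-TRRAP library. This gave a log2 fold change of 1.69 ± 0.42 (adjusted p = 0.002476, edgeR). The PLXNA4 call was lost without WT replicate 1 (1.30, adjusted p = 0.01511), WT replicate 2 (1.61, 0.01137) or Delta-TRRAP replicate 1 (1.58, 0.01231) in the edgeR test, and the log2 fold change was 2.29 without WT replicate 3.

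The abundant class A and B plexins were not called. PLXNA1, a signalling partner of the neuropilins (ENSG00000114554.11), had normalized counts of 3368, 3268 and 3617 in WT replicates 1 to 3 and 2406, 2455 and 2155 in Delta-TRRAP replicates 1 to 3. PLXNB2, the receptor of SEMA4C (ENSG00000196576.15), had 2246, 2182 and 2227 in WT replicates 1 to 3 and 1449, 1488 and 1287 in Delta-TRRAP replicates 1 to 3. PLXNB1, the receptor of SEMA4D (ENSG00000164050.13), had 599, 507 and 589 in WT replicates 1 to 3 and 413, 427 and 393 in Delta-TRRAP replicates 1 to 3. In all 3 genes the Delta-TRRAP libraries were the lower ones without overlap, and the log2 fold changes were -0.55 ± 0.06, -0.66 ± 0.06 and -0.46 ± 0.08, with adjusted p of at most 8.784e-05 (edgeR). PLXNA3, which works with NRP2 for SEMA3F (ENSG00000130827.6), went the other way by a small amount. It had 1123, 907 and 1075 in WT replicates 1 to 3 and 1178, 1279 and 1221 in Delta-TRRAP replicates 1 to 3, a log2 fold change of 0.25 ± 0.07. PLXNA2, a receptor of SEMA6A, averaged 24.6 ± 9.71 in WT and 43.5 ± 1.18 in Delta-TRRAP (SD, n = 3). Its log2 fold change of 0.82 ± 0.25 became a call without WT replicate 3 (1.13, adjusted p = 0.001366, edgeR). PLXNB3 stood at 5.66 and 7.95 with overlapping groups. Part of it shares its strand with SRPK3, and reads over exons of both were dropped by the counting mode.

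Neuropilins, which bind class 3 semaphorins and vascular endothelial growth factors, were scarce. NRP2 (ENSG00000118257.16, chr2:205681990-205798133, plus strand) had raw counts of 1, 0 and 1 in WT replicates 1 to 3 and 16, 9 and 12 in Delta-TRRAP replicates 1 to 3. WT held 2 reads in all and each Delta-TRRAP library at least 9. The scaled ratio was 18.6 with a 95% exact counting interval from 4.81 to 160, and the adjusted p was 5.518e-05 (edgeR quasi-likelihood test). Without Delta-TRRAP replicate 1 its mean fell below the filter and NRP2 was not tested. NRP1 (ENSG00000099250.18) had normalized counts of 26.3, 41.2 and 17.3 in WT replicates 1 to 3 and 38.2, 40.9 and 28.6 in Delta-TRRAP replicates 1 to 3. The NRP1 groups overlapped (log2 fold change 0.34 ± 0.27, adjusted p = 0.2895, edgeR).

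Of the 16 tested members that were not called, 10 passed the adjusted p alone in the edgeR test. They were 4 higher and 6 lower out of all 26 tested members, beside 14.2% and 21.5% out of all tested genes. The higher ones were SEMA4F, SEMA6C, PLXNA2 and PLXNA3, and the lower ones SEMA3A, SEMA4B, SEMA4C, PLXNA1, PLXNB1 and PLXNB2. In all, 20 of 26 members passed on p, beside 58.3% of all tested genes. The 6 lower genes passed on p under each of 16 alternative settings. SEMA6C missed it under 9 of 16, PLXNA2 under 7 of 15, PLXNA3 under 5 of 16 and SEMA4F under 3 of 16.

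**Figure D2:**
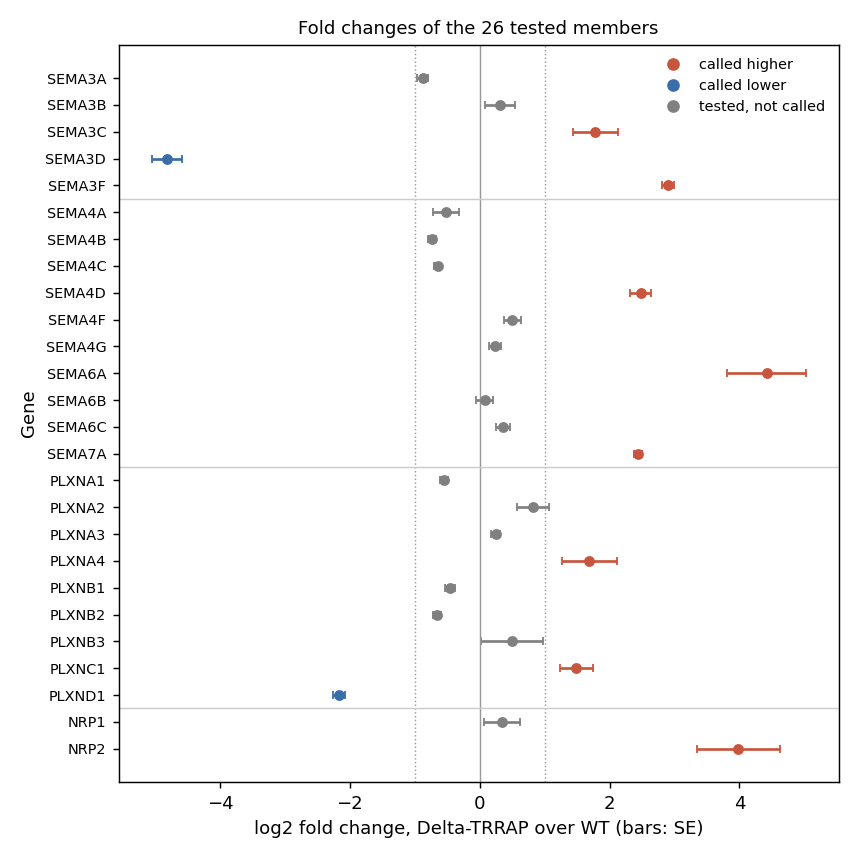
Log2 fold change of the 26 tested members, Delta-TRRAP over WT, with SE bars from the edgeR fit on 3 libraries per group. Dotted lines mark a 2-fold change. SEMA6A (4.42), NRP2 (3.99) and SEMA3F (2.90) lie farthest right and SEMA3D (-4.82) farthest left, while the abundant SEMA4C, SEMA4B, PLXNA1 and PLXNB2 lie between -1 and 0.

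To compare levels between genes, counts were divided by the merged exon length and scaled to the library sum of such values (TPM). In WT the highest level of the set was that of PLXNB2 (29.3 ± 0.410 TPM in WT and 19.2 ± 2.01 TPM in Delta-TRRAP, SD, n = 3). PLXNA1 stood beside it at 29.2 ± 1.74 TPM in WT and 20.7 ± 2.02 TPM in Delta-TRRAP, within the spread in both groups. SEMA4C, SEMA4B and SEMA7A followed in WT, with means of 24.9, 16.9 and 9.37 TPM. In Delta-TRRAP the order changed: SEMA7A, at 9.37 ± 0.348 TPM in WT and 52.7 ± 3.89 TPM in Delta-TRRAP, took the first place, and SEMA3F, at 2.35 ± 0.357 TPM in WT and 18.1 ± 0.328 TPM in Delta-TRRAP, the fourth. SEMA3D went the other way, with 1.46 ± 0.127 TPM in WT and 0.0520 ± 0.0178 TPM in Delta-TRRAP. In both groups 15 of the 31 members were below 1 TPM, including the called NRP2, PLXNC1, PLXNA4, SEMA3C and SEMA6A.

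Summed over the class, semaphorin transcripts went from 71.0 ± 1.08 to 114 ± 6.23 TPM (SD, n = 3), a ratio of 1.61, and plexin transcripts went from 79.7 ± 3.43 to 56.9 ± 5.08 TPM, a ratio of 0.713. All Delta-TRRAP sums of semaphorins (108 to 120) were above those of WT (70.0 to 72.2), and the plexin sums (51.1 to 60.8) were below those of WT (76.4 to 83.3). These sums were not tested. On the TMM scale of the gene test the ratios were 1.47 and 0.651. SEMA7A made up 13.2% ± 0.567 of semaphorin TPM in WT and 46.1% ± 0.929 in Delta-TRRAP, and SEMA3F 3.31% ± 0.455 and 15.8% ± 0.600. The joint share of SEMA4B and SEMA4C went from 58.9% ± 0.825 to 23.6% ± 0.937. Among plexins the joint share of PLXNA1 and PLXNB2 was 73.4% ± 0.881 in WT and 70.1% ± 1.01 in Delta-TRRAP, PLXNA3 had 10.6% ± 0.854 and 18.3% ± 1.13, and PLXND1 had 8.58% ± 0.364 and 2.75% ± 0.343. The semaphorin pool thus changed its leading gene, whereas PLXNA1 and PLXNB2 remained the leading plexins.

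**Figure D3:**
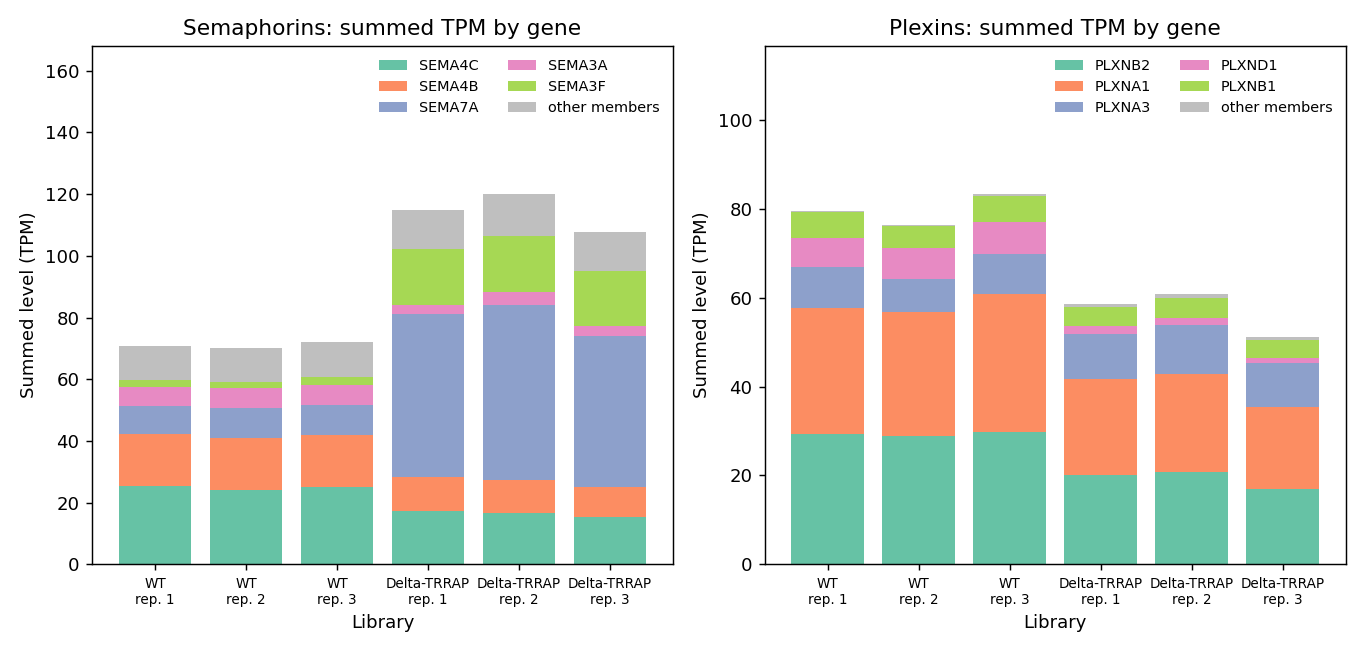
Summed TPM of the 20 semaphorins (left) and the 9 plexins (right) in each library, with the 5 leading genes stacked in colour and the others in grey. SEMA7A grows from 13.2% to 46.1% of the semaphorin sum, while PLXNA1 and PLXNB2 together stay at 73.4% and 70.1% of the plexin sum.

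Known ligand and receptor pairs were set side by side as values. For SEMA7A and PLXNC1 the log2 fold changes were 2.44 and 1.49, both rises. For SEMA3F and its receptors they were 2.90 for the ligand, 3.99 for NRP2 and 0.25 for PLXNA3. SEMA4D had 2.48 and its receptor PLXNB1 -0.46. SEMA6A had 4.42 beside 0.82 for PLXNA2 and 1.69 for PLXNA4. SEMA4C and PLXNB2 had -0.65 and -0.66. PLXND1 had -2.17, and its ligand SEMA3E was not measurable at this depth. Protein levels and binding were not measured.

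The genes around each called member were examined within 1 Mb of its start site. For scale, 16.5% of all tested genes rose and 6.08% fell. SEMA3F had 46 tested neighbours with a median log2 fold change of 0.0037, of which 7 rose and 1 fell. One of them, AC105935.1, stood above SEMA3F, with a log2 fold change of 3.13 at a distance of 251 kb, and was named after its value was seen. PLXND1, which fell, had 29 neighbours with a median of 0.30, of which 6 were called by both thresholds (edgeR), each of them higher. SEMA7A had 37 neighbours with a median of 0.25, of which 10 rose and 2 fell. CYP11A1 among them, the enzyme that starts steroid synthesis, rose by 7.03 ± 0.31 on the log2 scale 66.3 kb away (adjusted p = 3.452e-11, edgeR). It was named after its value was seen. SEMA3C had no tested neighbour. For the other called members with neighbours the median ran from -0.75 around SEMA4D, which rose, to 0.15 around PLXNC1. In 5 of the 9 called members with neighbours the change of the member was larger than that of any neighbour in the same direction, and in the other 4 (SEMA3F, SEMA7A, PLXNC1 and NRP2) a neighbour exceeded it.

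**Figure D4:**
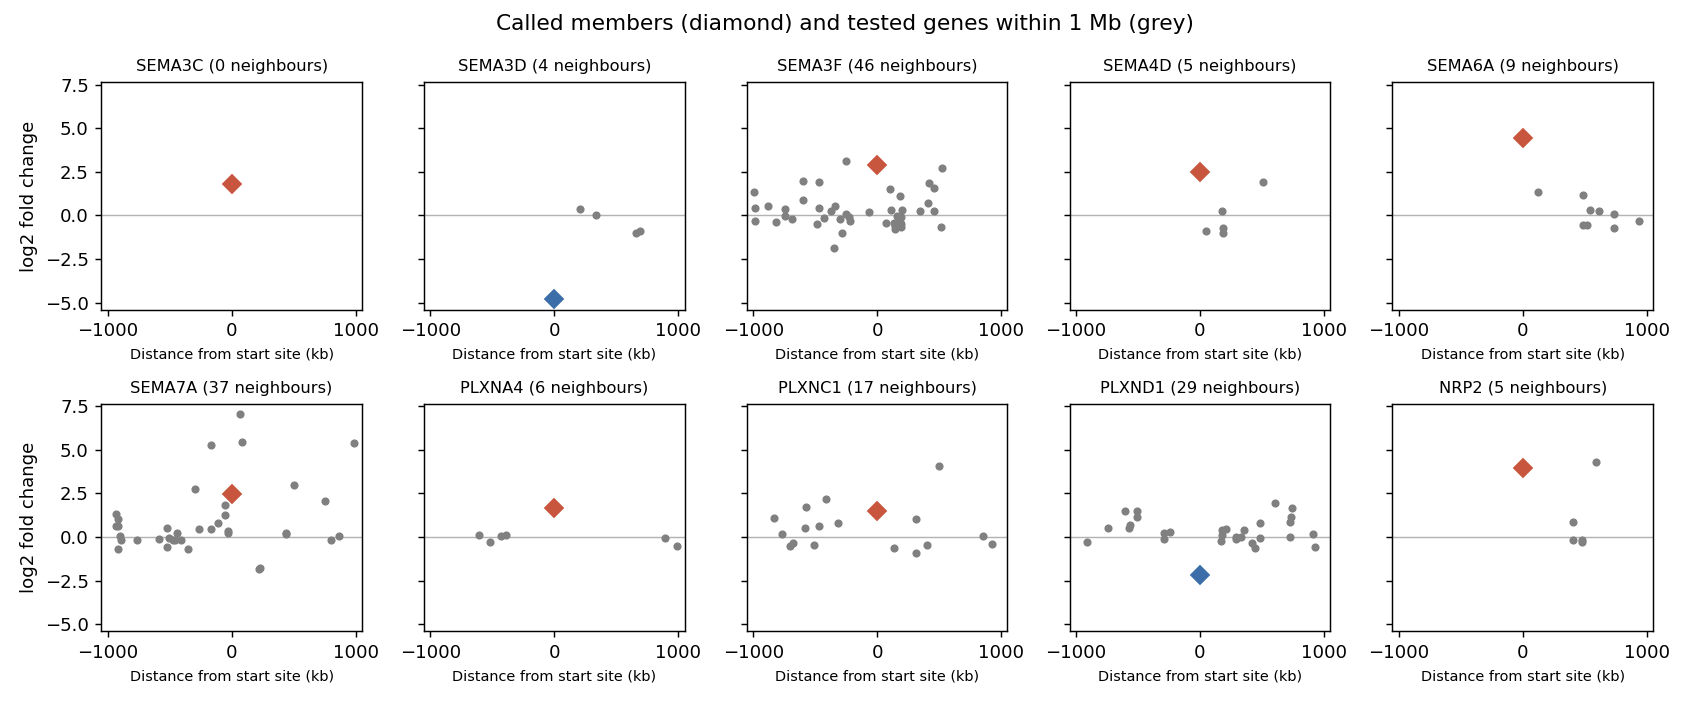
Log2 fold change of each called member (diamond) and of the tested genes within 1 Mb of its start site (grey) against distance in kb, positive downstream on the strand of the member. The neighbours of SEMA3F centre on 0.0037 while SEMA3F lies at 2.90 with 1 neighbour above it at 3.13, and those of PLXND1 centre on 0.30 while PLXND1 lies at -2.17.

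Other receptors and ligands known to pair with this family formed a list of 20 genes, of which 16 were tested and 6 were called, each of them higher. Those 6 are 37.5% of the tested ones, beside 22.6% of all tested genes called. Between 5 and 100 normalized counts 3 of 7 were called, beside 37.1% of all genes at that level. Between 100 and 1000 it was 3 of 6, beside 22.7%, and at 1000 or more 0 of 3, beside 6.31%. FLT1 and ITGA1 reached the filter of 5 only in Delta-TRRAP, the group in which they were high. On the adjusted p alone 9 of the 16 passed in edgeR, beside 58.3% of all tested genes. VEGFA (log2 fold change -0.31), ITGB1 (-0.52) and GIPC1 (-0.44) were among them, lower but short of a 2-fold change. The median log2 fold change of the list was 0.25. FLT1, a VEGF receptor that can pair with neuropilins, went from 8 reads summed over WT to 609 over Delta-TRRAP (log2 fold change 6.20 ± 0.22, adjusted p = 2.686e-12, edgeR). MET, the hepatocyte growth factor receptor that couples to class B plexins, had normalized counts of 124, 136 and 141 in WT replicates 1 to 3 and 1059, 1131 and 1015 in Delta-TRRAP replicates 1 to 3. Both groups were tight and far apart (log2 fold change 3.00 ± 0.08, adjusted p = 9.398e-14, edgeR). ERBB2, another kinase that couples to plexin B1, averaged 203 ± 9.85 and 429.7 ± 17.1 (log2 fold change 1.08 ± 0.08). The other 3, named after their values were seen, were FLT4 (2.91), L1CAM (2.64) and ITGA1 (3.45), all under 50 normalized counts. ITGB1, the integrin chain bound by SEMA7A, had a log2 fold change of -0.52 ± 0.06 and was not called.

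Of 38 cytoplasmic effectors of plexins, which include collapsin response mediators, MICAL oxidases, small GTPases and kinases, 33 were tested, 1 rose and 1 fell, with a median log2 fold change of -0.03. These calls are 6.06% of the list beside 22.6% of all tested genes, but 17 of the 33 averaged 1000 or more normalized counts, where 6.31% of all genes were called. On the adjusted p alone 17 of the 33 passed, beside 58.3% of all tested genes. PAK1, a kinase downstream of RAC1, rose from 267 ± 5.16 to 606 ± 17.2 normalized counts (SD, n = 3, log2 fold change 1.18 ± 0.07, adjusted p = 8.475e-10, edgeR). FYN, a Src family kinase that phosphorylates plexin A, fell from 2710.2 ± 54.0 to 1305 ± 10.8 (log2 fold change -1.05 ± 0.05, adjusted p = 5.518e-11, edgeR). With scaling by library size alone FYN stood at -0.92, with upper quartile scaling at -0.95 and with a minimum mean count of 50 at -0.98, all short of a 2-fold change.

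**Figure D5:**
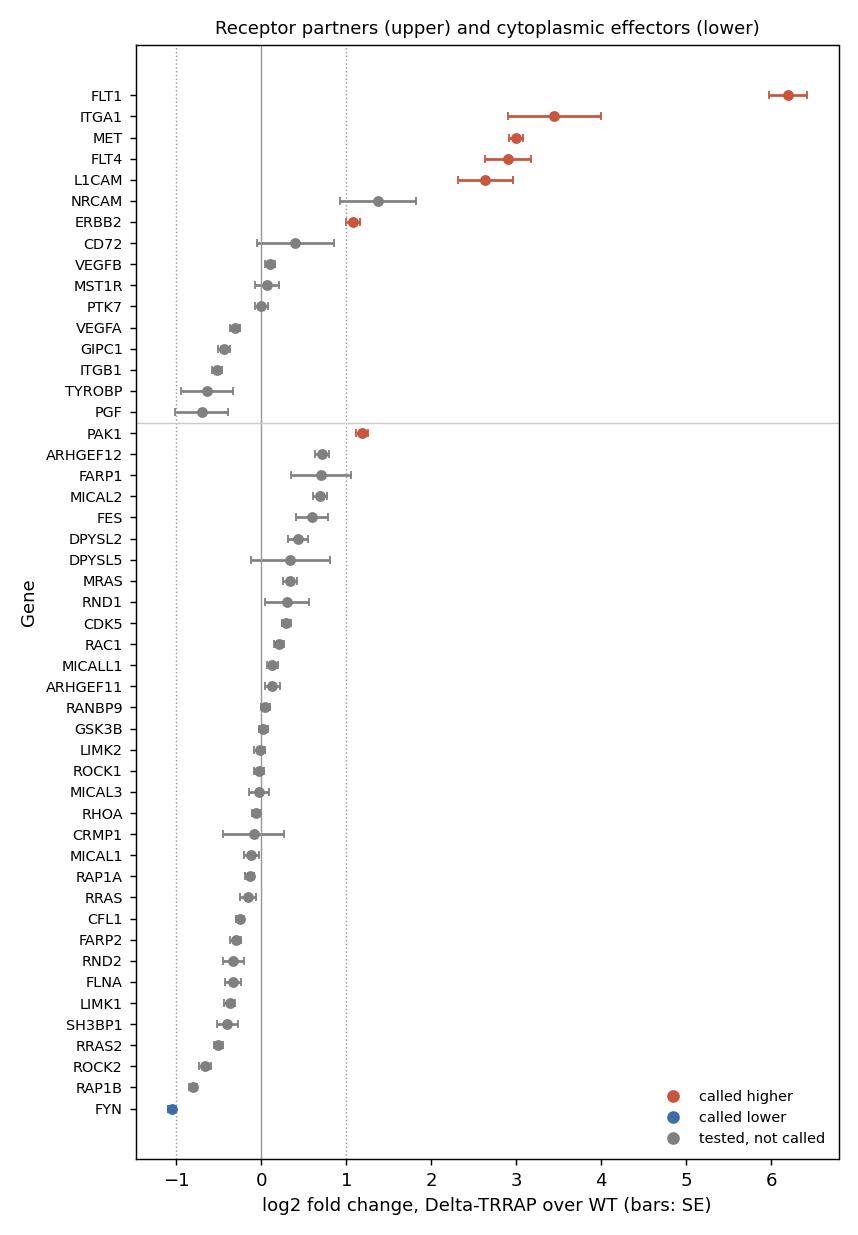
Log2 fold change with SE of the tested receptor partners (upper block) and cytoplasmic effectors (lower block), Delta-TRRAP over WT, each sorted by value. Dotted lines mark a 2-fold change. FLT1 (6.20) and MET (3.00) lie far to the right, and the effectors gather around 0 with PAK1 (1.18) and FYN (-1.05) at the edges.

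The WT libraries summed to between 39966818 and 42616061 counts and the Delta-TRRAP libraries to between 35076835 and 38491513, of which the members took 0.0297% to 0.0319%. The mitochondrial share of counts was 3.18% to 3.71% in WT against 5.07% to 6.24% in Delta-TRRAP. EP400 itself, which sums both copies, had normalized counts of between 4897 and 5377 in WT against 4357 to 6833 in Delta-TRRAP, which overlap, and gene counts cannot show the deletion. All 14 K562 markers were tested, with GATA1, TAL1 and KLF1 high in both groups. Of these 14, 3 rose and 2 fell, beside 16.5% and 6.08% of all tested genes. Their summed level was 6054 to 6115 CPM, counts scaled to library size with the TMM factors, in WT against 4239 to 4345 for Delta-TRRAP. The difference rested on TFRC, the transferrin receptor, which fell (log2 fold change -1.09), as did LMO2 (-1.14), while ALAS2 (3.75), HBZ (2.89) and HBE1 (2.08) rose. Without TFRC the other 13 markers summed to 1042 to 1122 CPM in WT against 1947 to 2137 for Delta-TRRAP. These sums without TFRC used plain library totals without the TMM factors, so they cannot be subtracted from the sums with it. Semaphorins and neuropilins are also expressed by other cell types, whose markers were summed. Fibroblast markers ran from 34.4 to 38.5 CPM in WT and 45.0 to 53.5 in Delta-TRRAP, and LUM and PDGFRA were at 0 in every library. Of 12 markers 6 were tested and 3 rose (COL1A2, from 5 to 2622 reads, PDGFRB and POSTN), beside 16.5% of all tested genes. All 3 reached the filter of 5 only in Delta-TRRAP. Most of the WT sum was COL6A3, which went from 4098 to 2834 reads (log2 fold change -0.53, not called). COL1A1 and DCN were not called either. Endothelial markers ran from 45.2 to 48.5 and 39.9 to 41.7 CPM, and CDH5 and CLDN5 had at most 1 read in all. Of 10 markers 5 were tested and 1 rose (TEK), beside 16.5% of all tested genes. TEK reached the filter of 5 only in Delta-TRRAP, the group in which it was high. Most of the endothelial sum was PECAM1, with 2031 reads over WT and 1201 over Delta-TRRAP (log2 fold change -0.75, not called), and EGFL7. Of the 9 markers besides PECAM1, 4 were tested, 3 with a positive and 1 with a negative log2 fold change. Among those too low to test, KDR went from 0 to 17 reads over the 3 libraries, ERG from 2 to 18 and VWF from 1 to 10. Neuron markers ran from 5.57 to 6.88 and 11.9 to 13.3 CPM, and RBFOX3, NEFL and STMN2 were at 0. Of 10 markers 2 were tested and 1 rose (GAP43), beside 16.5% of all tested genes. Most of that sum was SYP, with 686 reads over WT and 1330 over Delta-TRRAP (log2 fold change 0.97, not called). Lymphoid markers ran from 421 to 435 and 111 to 124 CPM, 5 of 8 were tested and 1 fell (PTPRC), and MS4A1 was at 0. The markers given with values or in parentheses were named after their values were seen. In bulk RNA, fewer cells that express a gene and less RNA per cell cannot be told apart. The part of these shifts in the results was not tested.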

How the data were processed

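Poly(A) RNA of K562 cells was sequenced in 6 libraries, 3 per group, with groups and replicate numbers taken from the sample titles. The authors deposited raw counts per gene for each library. Per the study's methods and the submitters' processing notes, STAR placed reads on hg38, only unique alignments were kept, and HTSeq 2.0.2 counted them per GENCODE release 32 gene (reverse stranded, union mode). A table of size-factor normalized signal, with 3 further per-sample columns of another condition, and the authors' comparison (mean, log2 fold change, error and p) were not used here. Labels call the libraries biological replicates, and p-values measure the spread between them, not between clones.

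Counts were tested with edgeR 4.0.16 (quasi-likelihood F test, group only, TMM factors from the tested genes) in R 4.3.3. The filter, a mean of 5 or more normalized counts, left 19114 of the 34998 detected genes for testing. A call required both an adjusted p (Benjamini-Hochberg) of at most 0.01 and a 2-fold change, as in the study, which used DESeq2. Errors are SD of counts or SE of log2 fold changes. Within each group, pairs of libraries differed by a chi-square per gene of 4.93 to 15.5, above sampling noise, so all 6 were kept as separate replicates. Counting intervals are exact and cover counting error only. TPM used merged exon lengths of GENCODE release 44 on GRCh38, and positions come from that release. Promoters were matched by symbol for 27 of 31 members. The fit was tested on simulated data. Members and gene lists were chosen with earlier results of these data known, and the lists were written by hand. All members are named, with all libraries for those called or averaging 100 normalized counts or more, and listed partners and effectors where called and averaging 100 or more. Alternatives were DESeq2 1.42.0, limma-voom 3.58.1, other scalings, filters and thresholds, a replicate block and leaving out each library.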

Additional observations from a re-analysis of the deposited data

How the results depend on the processing

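All 16 alternatives were planned. DESeq2, limma-voom, each scaling, testing every gene with a count, an adjusted p of 0.05 and the replicate block all kept the same 10 members called in the same direction, with 3983, 4283, 4322 to 4521, 5098, 4686 and 4184 calls over all genes. With a minimum mean count of 50, 16 members were tested, 3 rose and 2 fell, 3 partners and 1 effector were called, and 1291 genes rose and 673 fell, since fewer genes were tested. With a fold threshold of 1.5, 6 members were called lower, 2562 genes fell and 7 effectors were called, and SEMA3A, SEMA4B, SEMA4C, PLXNA2 and PLXNB2 joined the called members. With library size alone or upper quartile scaling 1 effector was called, and the median of all genes moved by 0.14 and 0.10 on the log2 scale. The share of calls that were rises was 73.1% with TMM, 79.6% with library size, 77.9% with upper quartile scaling and 65.7% with a minimum of 50. Without 1 library, 8 to 11 members were called. The changes concerned PLXNA4, PLXNA2 and NRP2, given above. Among uncalled genes, SEMA6B ran from -0.032 (without WT replicate 2) to 0.16 and PLXNB3 from -0.0066 (without Delta-TRRAP replicate 2) to 0.83. Of 485 gene values, 471 kept direction and call. The replicate numbers did not pair the libraries: the deviations of same-numbered libraries correlated at 0.12, -0.11 and -0.26, so the block is an alternative here, with 10 members called. Depth limits SEMA3E, SEMA3G, SEMA5A, SEMA5B and SEMA6D, for which no difference was detectable, and SEMA6A and NRP2, whose WT counts were 2 each.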
